A study of Homo sapiens with 14 samples.

Results

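Distal 3q is taken here as the end of the long arm of chromosome 3 from 178.7 Mb (hg19), and its RNA was compared between HEK293T cells with and without SETD2. The stretch held 226 of the 35671 loci in the authors' tables, where a locus is a group of overlapping transcripts that share 1 deposited interval. It was selected on the measured knockout over wild type ratios, because loci of the rest of chromosome 3 lay mostly on the other side of 1. Its ratios are therefore a description, and no test of them is given.

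HEK293T is a line of human embryonic kidney cells transformed with adenovirus sequence, to which the SV40 large T antigen was added. SETD2 trimethylates histone H3 at lysine 36 (H3K36me3), a mark of the bodies of transcribed genes, and its own gene lies on the short arm of chromosome 3. Distal 3q is known for carrying PIK3CA, SOX2, TP63 and BCL6, and extra copies of it are common in squamous carcinomas, whereas clear cell renal carcinomas often lose the short arm. These are background facts. No locus below is assigned to a gene, because the files pair transcript IDs with no names.

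The RNA libraries numbered 6 of the 14 samples of the series. They comprised 3 of HEK293T cells whose labelled genotype is wildtype and 3 of HEK293T cells labelled SETD2 Knockout, with no further treatment named. The labels describe RNA depleted of ribosomal RNA, except that the label of wild type replicate 1 carries a ChIP protocol in its place. The labels do not state how the knockout was made, whether it is 1 clone, or whether the libraries stem from separate cultures. RNA was measured in bulk, so fewer cells with a transcript and less RNA per cell cannot be told apart.

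The deposited values were FPKM (fragments mapped to a transcript, scaled by its length and by the library's total of mapped fragments), with 1 value per transcript and group. No value per library was used, so the spread between libraries behind a locus sum, and the sequencing depth, are unknown. The values came in 2 versions, a table of the authors' tests and a tracking table. Over the expressed members the wild type sums of the tracking table were 0.975 to 0.980 of those in the test table, while knockout sums ranged from 0.652 to 1.82 of theirs. Neither version states which libraries entered it. A value with no table named comes from the test table. The level of SETD2 and the markers of kidney cells were not checked, since no ID could be tied to a symbol.

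Distal 3q spanned 19.2 Mb of locus starts and ends and held 1792 transcripts. Of its 226 loci, 85 (37.6%) were expressed, meaning that the FPKM of their transcripts summed to at least 1 in a group and above 0 in both. A further 75 loci were listed at 0 in both groups, 25 at 0 in the knockout alone and 1 at 0 in the wild type alone. Of the 25, 3 were above 0 in the knockout in the tracking table. Another 40 were above 0 in both groups but under 1 FPKM. Of the loci at 0 in a single group, 2 reached 1 FPKM in the other. Both are short: 3:187141103-187141207, of 0 FPKM in the knockout against 26.3 in the wild type, was not called (p = 0.0101, q = 0.991 in the authors' deposited table), and 3:195647715-195648000 is described with the authors' calls.

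More loci were listed at 0 in the knockout alone than in the wild type alone, in distal 3q as elsewhere. The counts stood at 21 against 6 among the 204 loci from 150 Mb up to the boundary, called adjacent 3q here, and at 3176 against 389 over 33618 loci of chromosomes 1 to 22 and X. Expressed loci were denser in distal than in adjacent 3q, at 4.42 against 2.46 per Mb. Expressed members had a median length of 59065 bases against 59986.5 in adjacent 3q and 36333 over all expressed loci. They held a median of 13 transcripts, against 9.5 in adjacent 3q and 8 overall. Their median wild type level was 11.6 FPKM (quartiles 4.01 and 34.5), against 9.07 in adjacent 3q, 18.8 in the rest of chromosome 3 and 15.9 over all expressed loci.

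Among the 85 expressed members, 59 (69.4%) had a higher sum in the knockout, beside 56.1% of all 12424 expressed loci. The median log2 ratio of knockout over wild type was 0.27 (quartiles -0.09 and 0.54), a 1.20-fold median, against 0.06 over all loci (quartiles -0.24 and 0.34). In adjacent 3q, 22 of 70 loci were higher and the median was -0.21 (quartiles -0.46 and 0.04). The rest of chromosome 3 had 143 of 509 loci higher and a median of -0.28. Adjacent 3q thus lay with the bulk of its chromosome, and the medians on the 2 sides of the boundary differed by 0.48 on the log2 scale. Because the boundary was placed on these ratios, that difference has no error of its own.

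Tracking-table values gave 55 of 85 members higher (64.7%), a median of 0.21 in distal 3q and -0.34 in adjacent 3q, and a difference of 0.55. Over all 12379 expressed loci of that table, 58.6% were higher and the median was 0.08. Distal 3q had a higher median than each of the 22 other chromosomes taken whole. Since it is a part selected on these ratios, nothing is read from that rank. The 90 expressed loci of chromosome 13 from 72 Mb, called distal 13q here, had a median of 0.33, above that of distal 3q, with 74 higher in the knockout. Distal 13q was taken because it too had been named as a rising arm, so it is no independent comparison.

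**Figure D1:**
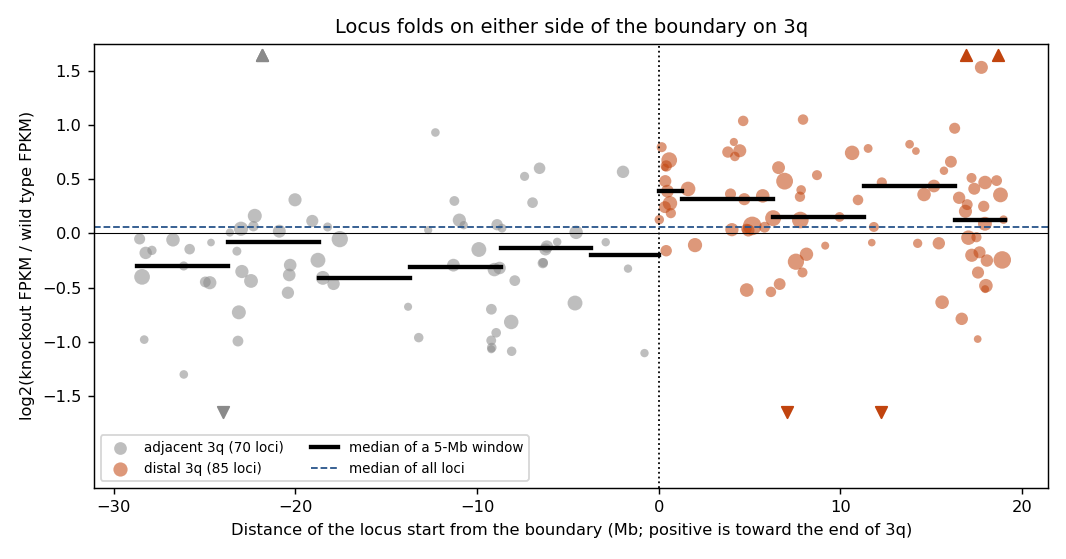
Log2 ratio of summed FPKM, knockout over wild type (vertical axis), against the distance of each expressed locus from the boundary in Mb (horizontal axis), for adjacent 3q (grey, 70 loci) and distal 3q (orange, 85 loci). Point area grows with mean FPKM, triangles stand for loci beyond the plotted ratios, black bars are medians of 5-Mb windows and the dashed line is the median of all loci, 0.06. All 5 distal window medians lie above the dashed line and all 6 adjacent ones lie below 0.

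The shift was modest for single loci. A ratio of at least 1.5-fold up was found for 20 members (23.5%, beside 13.1% of all expressed loci) and of at least 1.5-fold down for 5 members (5.88%, beside 11.1%). The other 60 lay within 1.5-fold. Because the rule used this contrast, nothing is read from these shares.

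Just inside the boundary, 3:178735011-178790067 had 3.60 FPKM (knockout) against 3.30 (wild type), and the direction turned in the tracking table (0.844-fold). The next expressed member, 3:178865902-178984790, had 6.11 FPKM against 3.52 (1.74-fold, 1.58-fold in the tracking table). The third, 3:179040779-179053323, had 15.9 FPKM against 13.5 (1.18-fold, 1.07-fold in the tracking table). These members are of low to middling level and none stands at an extreme of the ratios.

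Just outside the boundary the 3 nearest expressed loci did not all lie on one side of 1. The nearest, 3:177919838-178578193, had 1.17 FPKM in the knockout against 2.51 in the wild type, but 1.82 against 2.45 in the tracking table. The locus 3:177012230-177041206 had 1.61 FPKM against 2.01 (0.798-fold, 0.675-fold in the tracking table). The third, 3:176737143-176915261, had 23.7 FPKM against 15.9 (1.48-fold, 1.18-fold in the tracking table), on the side of the distal members. No expressed locus started between 177919838 and 178735011, so the ratios cannot place the boundary within that gap. Nor do they tie it to the gap. With the boundary 4 Mb lower, the members' median log2 ratio was 0.25, against 0.27 as placed. The difference from adjacent 3q was then 0.46, against 0.48.

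Along the arm the ratio was not even. In the 11 members up to 180 Mb, 10 were higher in the knockout and the median log2 ratio was 0.39. From 180 to 185 Mb, 14 of 17 were higher, with a median of 0.32 (0.24 in the tracking table). From 185 to 190 Mb, 11 of 17 were higher, with a median of 0.15 (0.30 in the tracking table). The share of higher members was largest beside the boundary. The boundary was placed on these same ratios, which favours a high share just inside it, so nothing is read from this.

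Toward the end of the arm the directions were more mixed. From 190 to 195 Mb, 10 of 15 members were higher (median 0.44). From 195 Mb on, 14 of 25 were higher (56%), which is no excess over the 56.1% of all expressed loci. The median of these 25 was 0.13 (test table) or -0.01 (tracking table). The last window thus lost its sign between the tables. In adjacent 3q, each of the 6 windows had a median below 0, from -0.08 between 155 and 160 Mb to -0.41 between 160 and 165 Mb. In the tracking table these 6 medians ran from -0.24 to -0.43, with -0.25 between 155 and 160 Mb. From 150 to 155 Mb, 0 of 13 adjacent loci were higher. Over the 85 members the ratio and the distance from the boundary had a Spearman correlation of -0.156, a description over loci that share the same libraries.

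The ratio was next set against expression level, in classes of the mean FPKM of both groups. Members of 1 to 5 FPKM (22 loci) had a median log2 ratio of 0.28, those of 5 to 20 FPKM (30 loci) 0.29, those of 20 to 100 FPKM (23 loci) 0.28, and the 8 members of 100 FPKM or more 0.13. The remaining 2 members had a mean under 1 FPKM. Adjacent 3q gave -0.22, -0.15, -0.27 and -0.40 in the same classes (28, 17, 22 and 3 loci). The difference between the 2 stretches was 0.49, 0.43, 0.55 and 0.53 from the lowest to the highest class, the last resting on 3 adjacent loci. It was of like size in each class. The boundary was placed on these same ratios, so nothing is read from the shared sign. All expressed loci had medians of 0.08, 0.12, 0.05 and -0.01.

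**Figure D2:**
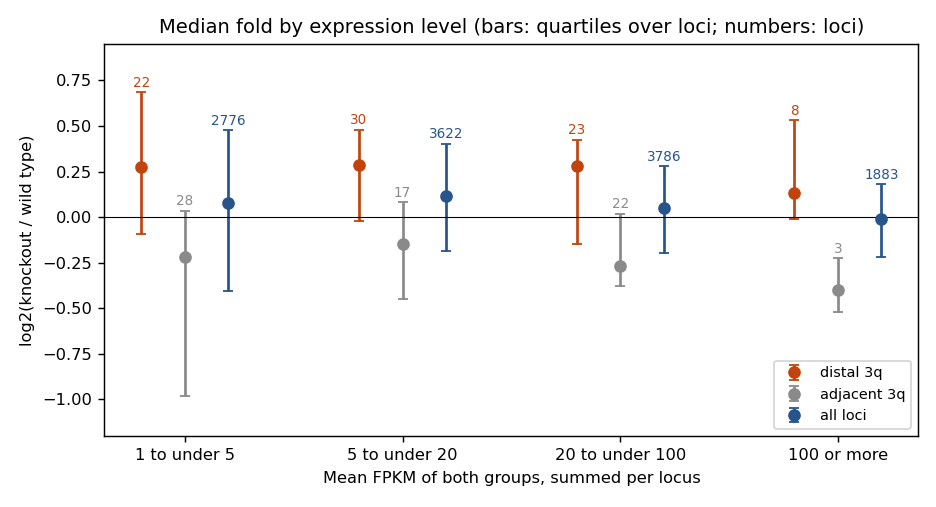
Log2 ratio of summed FPKM, knockout over wild type (vertical axis), of expressed loci grouped by mean FPKM of both groups (horizontal axis), for distal 3q, adjacent 3q and all loci. Points are medians, bars run between the quartiles over loci and the numbers printed over the bars count loci. The distal medians of 0.28, 0.29, 0.28 and 0.13 lie above the adjacent medians of -0.22, -0.15, -0.27 and -0.40 in each class.

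Other features of the members showed weak relations with the ratio, given as descriptions without a test. Spearman's correlation over the 85 members was -0.0861 with mean FPKM, -0.0348 with locus length and -0.110 with the number of transcripts. Over all expressed loci the same correlations were -0.0595, 0.0918 and 0.0331. The 12 members with a single transcript, where no division of reads among isoforms of the locus enters, had 9 higher and a median of 0.37. The 40 members of 2 to 14 transcripts had 29 higher and a median of 0.26, and the 33 members of 15 or more had 21 higher and a median of 0.15. From fewest to most transcripts, 75%, 72.5% and 63.6% of members were higher, beside 54.0%, 55.4% and 58.6% of all expressed loci. By length, the 12 members of up to 3000 bases had 9 higher and the 30 members over 100000 bases had 21 higher, with medians of 0.37 and 0.25. The 12 members over 3000 and up to 30000 bases had 10 higher (median 0.26). Those over 30000 and up to 100000 bases had 19 of 31 higher (median 0.20). Their summed FPKM was 0.964 of wild type (1.03 in the tracking table). From shortest to longest class, 75%, 83.3%, 61.3% and 70% of members were higher, beside 53.7%, 49.5%, 58.4% and 62.9% of all expressed loci. Higher sums were thus the majority in each length class. The share from 30000 to 100000 bases lay nearest to that of all loci.

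Single-transcript members illustrate the size of the shift. The locus 3:196669494-196670411 had 46.8 FPKM in the knockout against 33.8 in the wild type (1.39-fold, 1.59-fold in the tracking table). The locus 3:184428156-184429836 had 45.8 against 35.98 FPKM (1.27-fold), and 3:179182134-179183116 had 27.9 against 21.3 FPKM (1.31-fold). They were chosen after their values were seen, as the single-transcript members of highest level. In the other direction, the 171-base locus 3:196263403-196263573 had 0.806 against 1.59 FPKM (0.508-fold, 0.338-fold in the tracking table).

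Summed over the 85 members, RNA came to 6124 FPKM in the knockout against 5476 in wild type cells, a ratio of 1.12 (1.16 in the tracking table). The sum leaned on few loci. The largest, 3:183851807-184402546, merges 224 overlapping transcripts and had 1993 FPKM in the knockout against 1899.9 in the wild type (1.05-fold, 1.16-fold in the tracking table), which is 32.5% and 34.7% of the 2 sums. Without it the ratio was 1.16, and without the 3 largest members it was 1.23. Without the member of highest ratio it was 1.07. The ratio of sums was 0.893 in adjacent 3q, 0.848 in the rest of chromosome 3 and 1.32 on distal 13q, which was likewise taken as a rising arm. In the tracking table these ratios were 0.921, 0.878 and 1.28. Over all expressed loci the ratio was 0.981 in the test table and 1.07 in the tracking table. The 2 versions differ by more than a common scale. Over the members, knockout sums of the tracking table were 0.652 to 1.82 of those in the test table.

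The abundant members were not alike. The second by level, 3:197615946-197687013, was lower in the knockout at 696 FPKM against 825 (0.844-fold), but 0.990-fold in the tracking table. So was 3:186256230-186315061, at 249.6 against 299 FPKM (0.834-fold, 0.988-fold in the tracking table). These were the members lower in the knockout among the 10 most abundant. The locus 3:185633694-185655924 had 498 FPKM against 357, a 1.40-fold ratio.

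The remaining abundant members were higher in the knockout by differing amounts. Sums of 3:185000729-185216845 were 228 against 207 FPKM (1.103-fold, 1.28-fold in the tracking table), and the deposited bounds of its most abundant transcript overlapped, at 159 to 325 FPKM against 120 to 247. The locus 3:179280668-179322442 had 227 against 142 FPKM (1.60-fold, 1.40-fold in the tracking table). Smaller were 3:197518097-197615307, with 109 against 84.8 FPKM (1.28-fold), and 3:180319918-180700541, with 92.9 against 69.9 FPKM (1.33-fold). Ratios of the abundant loci thus ran from below 1 to well above 1.5.

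**Figure D3:**
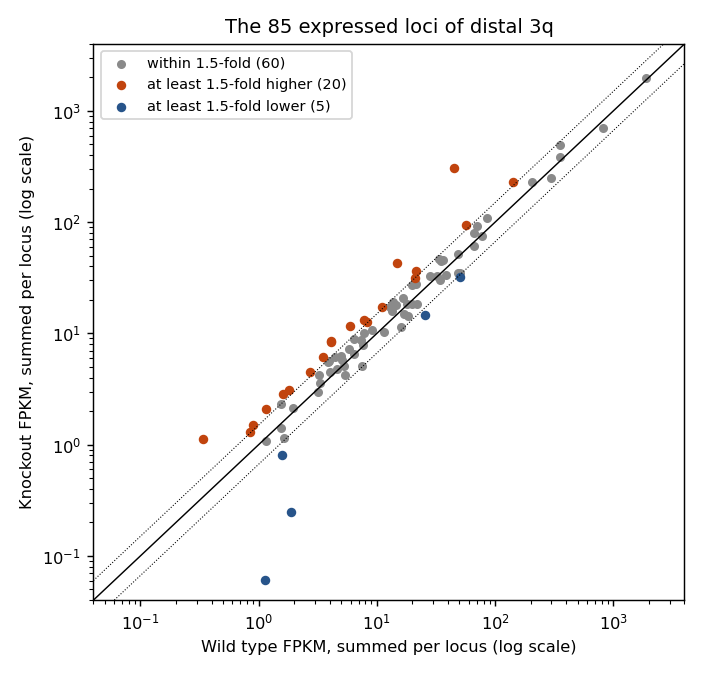
Summed FPKM of each expressed locus of distal 3q in the wild type (horizontal axis, log scale) and the knockout (vertical axis, log scale), 85 points. The solid line marks equal levels and the dotted lines 1.5-fold either way. Of the points, 59 lie above the solid line, and 3:197398264-197514467 stands far above it at 309 against 45.2 FPKM.

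The highest ratio belonged to 3:197398264-197514467, also among the 10 most abundant members. It had 309 FPKM in the knockout against 45.2 in wild type cells (6.83-fold), and 4.73-fold in the tracking table. Nearly all of the difference came from 1 of its 22 transcripts, ENST00000401223, with 287 FPKM against 22.7. The tracking table lists that transcript at 187 FPKM in the knockout, with bounds apart at 158 to 216 FPKM against 16.3 to 27.8, yet its q was 0.991 in the authors' deposited table. The other transcripts of the locus summed to 21.9 FPKM in the knockout against 22.6 in the wild type, so the locus without that transcript showed no shift of the size seen in the sum.

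Other members of high ratio were of lower level. The locus 3:196466728-196559518 had 42.8 against 14.8 FPKM (2.90-fold, 2.13-fold in the tracking table), and 1 of its transcripts went from a listed 0 in the wild type to 10.6 in the knockout. The locus 3:186648274-186796341 had 8.43 against 4.07 FPKM (2.07-fold, 1.90-fold in the tracking table), and 3:183353356-183402265 had 8.48 against 4.13 (2.06-fold, 1.55-fold in the tracking table). The next, 3:194995465-195163807, had 11.6 against 5.91 FPKM (1.96-fold, 1.57-fold in the tracking table). For 3:183165396-183173801 the sum of 36.3 against 21.4 FPKM (1.70-fold, 1.23-fold in the tracking table) held opposite parts. Its most abundant transcript had 30.7 against 12.0 FPKM, and its other transcripts 5.61 against 9.37.

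Further members of at least 1.5-fold lay along the whole stretch and were picked after their values were seen. Near the boundary, 3:179116990-179169378 had 12.6 against 8.19 FPKM (1.54-fold), and 3:182511288-182639726 had 13.1 against 7.80 (1.68-fold). In the middle, 3:185300284-185351339 had 31.7 against 20.8 FPKM (1.52-fold), and 3:189349205-189615068 had 94.4 against 56.4 (1.67-fold, 1.28-fold in the tracking table). Farther out, 3:194789008-194991896 had 17.4 against 10.99 FPKM (1.58-fold, 1.41-fold in the tracking table). The highest ratio among members of low level was 3.30-fold (2.69-fold in the tracking table), at 3:195638920-195640857 with 1.12 against 0.341 FPKM. The tracking table thus gave smaller ratios for several of these loci. At the members of highest ratio the most abundant transcript had a lower knockout value there. It fell from 287 to 187 FPKM at 3:197398264-197514467 and from 10.6 to 6.94 at 3:196466728-196559518, by nearly the same factor. At 3:183353356-183402265 it fell less, from 2.91 to 2.19 FPKM. Over the members, knockout sums of the tracking table had a median of 0.941 of those in the test table. The size of the highest ratios thus depends on the table used.

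Among members of at least 5 FPKM, the lowest ratio was that of 3:195384933-195467994, with 14.6 FPKM in the knockout against 25.3 in the wild type. It rested on 1 transcript listed at 0 in the knockout in the test table and at 15.3 FPKM in the wild type. In the tracking table that transcript had 14.3 against 14.9 FPKM, and the locus ratio became 1.08-fold. The lowest ratio therefore turned between the 2 tables.

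The next lowest members kept their direction in both tables. The locus 3:194304740-194393206 had 32.4 against 50.4 FPKM, and 1 transcript of 16.3 FPKM in the wild type was listed at 0 in the knockout in both tables. Values were 5.13 against 7.46 FPKM at 3:184880659-184999778 (0.688-fold, 0.617-fold in the tracking table) and 34.9 against 50.1 at 3:183547173-183606237. A further pair, 3:196715492-196756687 (34.7 against 48.5 FPKM, 0.715-fold, 0.884-fold in the tracking table) and 3:185361527-185542844 (11.5 against 15.9 FPKM, 0.723-fold, 0.889-fold in the tracking table), completed the lowest 6. Below that level, 3:190917030-190983404 had 0.0603 against 1.13 FPKM and 3:185764097-186080026 had 0.250 against 1.87, the lowest ratios of all 85 (log2 -4.23 and -2.90). The tracking table gives 0.0355-fold and 0.133-fold for them. These 2 were chosen after their values were seen.

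**Figure D4:**
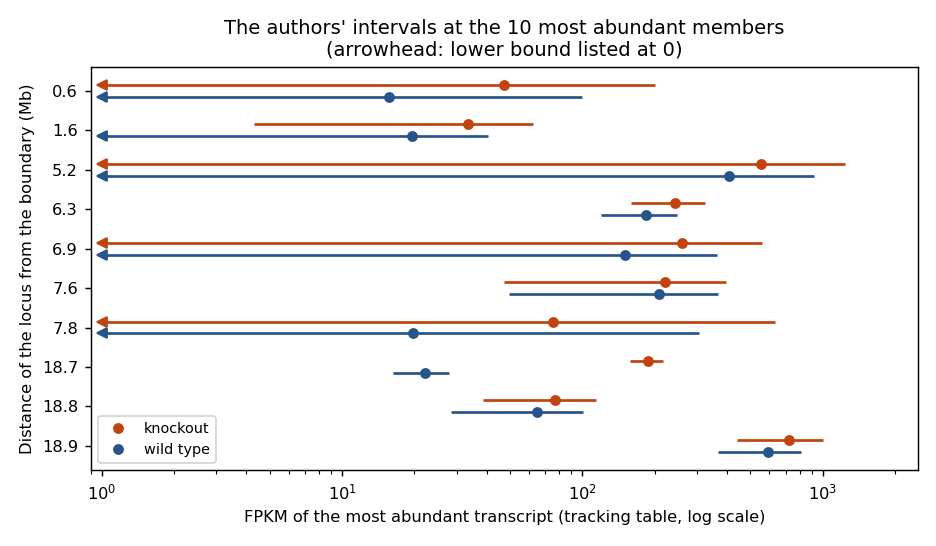
FPKM of the most abundant transcript (horizontal axis, log scale, tracking table) of the 10 most abundant members, placed by distance from the boundary in Mb (vertical axis, not to scale), in the knockout (orange) and the wild type (blue). Bars run between the authors' lower and upper bounds, and arrowheads mark a lower bound of 0. The bounds are apart for 3:197398264-197514467, at 158 to 216 FPKM in the knockout and 16.3 to 27.8 in the wild type.

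Error on the level of transcripts was read from the authors' bounds. The bounds of the most abundant transcript were apart between the groups for 1 of the 85 members (1.18%, beside 2.62% of all expressed loci). For the other 84 they overlapped. The files do not state the level of these bounds.

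Single transcripts were counted in the same way. Of 478 member transcripts at 1 FPKM or more in a group, 439 were above 0 in both, and 269 of these (61.3%) were higher in the knockout with a median log2 ratio of 0.23. Over chromosomes 1 to 22 and X 55.4% were higher with a median of 0.11. Of the 73 members with several transcripts, 60 had their most abundant transcript on the same side of 1 as the sum, and that transcript held a median of 45.4% of the locus. Being part of the sum, it tends to share its side by construction, so nothing is read from this count. Listed zeros were present in both directions, with 26 member transcripts (5.44%) at 0 in the knockout and 13 (2.72%) at 0 in the wild type. Of the 26, 6 were above 0 in the tracking table. The shares over chromosomes 1 to 22 and X were 4.46% and 2.43%.

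Some sums combined transcripts on opposite sides of 1. At 3:186499569-186524847, which summed to 383 FPKM in the knockout against 351 in wild type cells (1.09-fold), the most abundant transcript had 116 against 20.2 FPKM. Its deposited bounds ran from 0 to 632 FPKM in the knockout and from 0 to 306 in the wild type, so they overlapped. The other transcripts of that locus had 267 against 331 FPKM. Within the largest locus, 114 transcripts reached 1 FPKM in a group of the test table, of which 58 were higher in the knockout, 42 lower and 14 listed at 0 in a group.

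**Figure D5:**
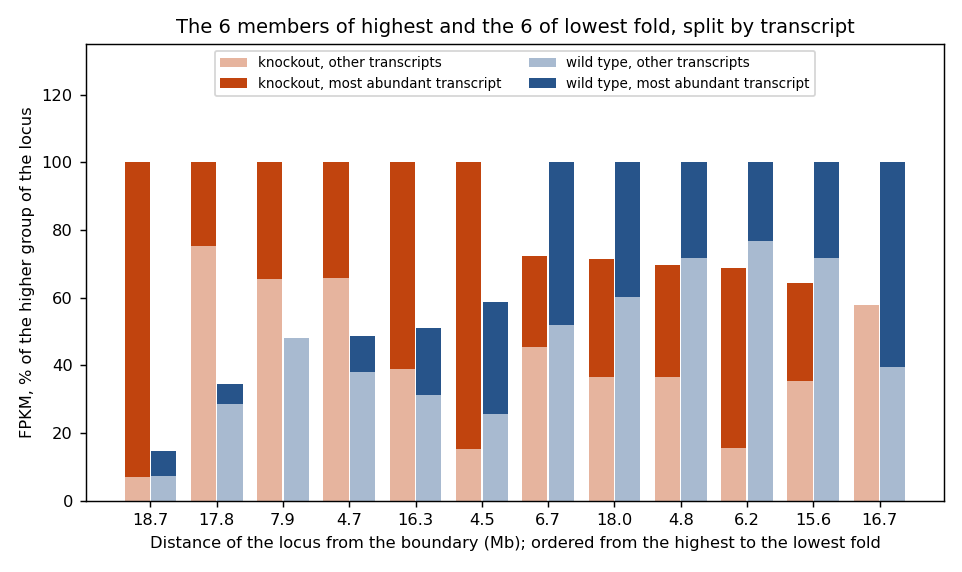
Summed FPKM of the 6 members of highest and the 6 of lowest ratio (test table), as a percentage of the higher group of each locus (vertical axis), ordered from the highest to the lowest ratio and marked by distance from the boundary in Mb (horizontal axis). Dark parts of the bars are the most abundant transcript and pale parts the other transcripts, in orange for the knockout and blue for the wild type. At 3:197398264-197514467 the most abundant transcript had 287 against 22.7 FPKM while the others had 21.9 against 22.6.

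The authors' own tests covered 739 of the 1792 member transcripts. At a q of 0.05, 1 transcript passed (0.135%, beside 0.255% of the 85852 tested transcripts). It was ENST00000584533 at 3:195647715-195648000, which rose from a listed 0 in the wild type to 1.80 FPKM in the knockout (p = 5e-05, q = 0.0220 in the authors' deposited table). The tracking table lists it at 1.17 FPKM with bounds of 0.220 and 2.12, against 0. No fold is given against a value of 0.

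At an unadjusted p under 0.05, 6 member transcripts were higher in the knockout (0.812%, beside 0.817%) and 17 were lower (2.30%, beside 1.57%) in the authors' deposited table. Of the 17, 11 belonged to the largest locus and all 11 were listed at 0 in the knockout in the test table. Of these, 8 were at 0 in the tracking table as well, and 3 were above it. The other 6 lay elsewhere. The next smallest q was that of ENST00000296350 at 3:196715492-196756687, with 5.62 against 11.2 FPKM (p = 0.00025, q = 0.0780 in the authors' deposited table). The 59 members with higher sums in the knockout thus held no transcript past the authors' threshold, since the called one lies in a locus listed at 0 in the wild type.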

How the data were processed

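RNA-seq covered wild type and SETD2 knockout HEK293T cells, with 3 libraries listed per group. The 8 ChIP libraries of the series were not analysed here. Tools are those that the submitters' processing notes name, without role: TopHat, Cuffdiff, Bowtie 1.1.2 and the build hg19. Which annotation was used is not given in the sources consulted.

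The authors deposited 1 FPKM value for each transcript in each group, and the tracking table adds a lower and an upper bound. Per the file headers, the table of the authors' tests also holds a log2 fold, a test statistic (a score with no fixed range), a p-value and a q-value per transcript. Each of the 204092 rows is an Ensembl transcript serving as its own gene, and 0 IDs matched the name tables used here, so the gene lists drawn up for distal 3q could not be applied.

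FPKM were summed over the transcripts of each deposited locus, with 1 added to each start, after 6 loci holding 50 transcripts of failed or overly deep status were left out. Ratios are knockout over wild type without a pseudocount, over loci of chromosomes 1 to 22 and X that reach 1 FPKM in either group and are above 0 in both groups. The design had planned a model per library only if library values existed. Loci named were the 10 most abundant, the 6 highest and 6 lowest by log2 of (FPKM + 1) among those of 5 FPKM or more, those called by the authors at q of 0.05, and the 3 nearest the boundary on each side. Members, lists and alternatives were chosen with earlier results of these data known. The authors' p-values, taken as deposited, extend no further than these libraries, whose spread may be technical. What else the p-values measure besides that spread was not checked. The filter for expressed loci, the split into stretches and the medians were tested on locus sums with simulated ratios. The summing over transcripts was not tested in that way. Python 3.11.15, pandas 2.3.3, numpy 2.4.6, scipy 1.17.1 and matplotlib 3.10.9 were used.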

Additional observations from a re-analysis of the deposited data

How the results depend on the processing

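With 1 deposited value per group, the ratios of locus sums have no error between libraries, and depth is unknown, so no limit on low values could be set. Of 39 alternative values under 18 settings, 35 were classed as the same as the main value, and 7 of the 39 were chosen after seeing the data. Classed as moved were the median from the most abundant transcript alone, the difference with the boundary 6 Mb higher, and both counts of the authors' calls. No share, median, difference or ratio of sums changed direction, which the choice of members on these ratios favours. Members share the same libraries, so this is no measure of stability. The share of members higher in the knockout ranged from 64.7% to 75.6%, and the ratio of summed FPKM from 1.07 to 1.16. The median log2 ratio of the members (0.27) ranged from 0.18 to 0.39. The lowest came with the boundary placed 6 Mb higher. It was 0.39 when the most abundant transcript of each locus was taken alone (78 members), where adjacent 3q gave -0.15 and all loci 0.05. The difference between distal and adjacent 3q (0.48) ranged from 0.24 to 0.55. It was 0.24 with the boundary placed 6 Mb higher, which moves members of distal 3q into the comparison stretch by construction. With loci outside chromosome 3 centred on 0, the members' median was 0.19. The authors' calls among member transcripts numbered 2 at a q of 0.1 and 8 at an unadjusted p of 0.01, against 1 at a q of 0.05.

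No paired analysis was possible because the files hold 1 value per group and none per library. Leaving out a library in turn was not run for the same reason.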
